A study of Arabidopsis thaliana with 4 samples.

Results

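The mitochondrial genome of Arabidopsis thaliana carries genes for part of the respiratory chain, for part of its own ribosome and for a few proteins that mature or transport others. The 38 gene models described here are those genes: 14 models for complex I (nad), 4 for complexes III and IV (cob, cox), 6 for ATP synthase (atp), 6 for cytochrome c maturation and protein transport (ccm, mttB), 7 for ribosomal proteins (rpl, rps) and 1 for the intron maturase matR. They were chosen by locus, from 33602 gene models counted in all, and not by their values. RNA came from aerial organs of soil-grown plants at Boyes stage 1.09, with no treatment. The groups were otp90, a knock-out in the line SM_3_29659, and the wild type Col-0, with 2 libraries each. The labels do not say whether the replicates are separate plants. The p-values below therefore describe only how these 4 libraries vary, which may be technical variation, and 1 line stands for the knock-out.

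Complex I passes electrons from NADH to ubiquinone, cytochrome b of complex III and the cox subunits of complex IV carry them on to oxygen, and ATP synthase uses the proton gradient that this builds. In plants many mitochondrial transcripts are changed by C-to-U editing, and some are spliced, by proteins that the nucleus encodes. The transcripts of nad1, nad2 and nad5 are each put together from separate RNAs by trans-splicing, so each has several gene models in the files, named here by letters in the order of the transcript. Earlier work has shown a large, nearly exact copy of the mitochondrial genome on chromosome 2 of the Col-0 nucleus.

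Reads with tied best alignments had been removed before counting, so sequence copied elsewhere in the genome is described here. How many reads each model lost was not measured. In TAIR10.1, 18 of the 37 models long enough to hold a window of 100 bases had an exact copy elsewhere in the genome for every such window of their coding sequence. All nuclear copies lay on chromosome 2, and they touched 30 of the models. Only 7 models had no copied window of 100 bases: nad1b, nad4L, nad5c, nad9, cox1, atp4 and ccmB. With windows of 50 bases, 19.2% of those of nad1b were copied. The files were made with TAIR10 and the mitochondrial sequence of TAIR10.1 is a separate assembly, so the windows describe TAIR10.1 only. Coding lengths were equal in 27 models and differed in 11.

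The stretches below show what the copy looks like, all from TAIR10.1 and written 5′ to 3′ along the gene. The first 60 bases of cob (chrMt:182799-182858, minus strand) stand unaltered on chromosome 2 (chr2:3450863-3450922, plus strand), so a read inside them matches both places equally. The nad7 stretch lies in exon 5 (chrMt:239347-239406, minus strand; copy chr2:3394378-3394437, plus strand) and differs from its copy in 1 of 60 bases, shown in capitals. Last come the starts of nad5 exon 1 in nad5a (chrMt:234352-234411, plus strand), which has an exact copy on chromosome 2, and of exon 4 in nad5c (chrMt:26817-26876, plus strand), which has none.
cob: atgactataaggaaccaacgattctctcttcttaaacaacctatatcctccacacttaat
cob copy on chromosome 2: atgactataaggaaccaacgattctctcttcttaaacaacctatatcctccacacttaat
nad7: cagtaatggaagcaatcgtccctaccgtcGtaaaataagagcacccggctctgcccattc
nad7 copy on chromosome 2: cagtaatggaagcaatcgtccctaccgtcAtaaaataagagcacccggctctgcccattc
nad5a: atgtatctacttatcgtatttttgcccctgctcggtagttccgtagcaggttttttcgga
nad5c: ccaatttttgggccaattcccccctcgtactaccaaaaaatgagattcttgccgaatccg

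Outside rRNA, otp90 replicate 1 had 1374590 counts and replicate 2 had 1750669, while the Col-0 replicates had 2503502 and 1723267. The removal of tied reads had taken 79.9% to 87.0% of the mapped reads of a library. The 38 models took 5306, 5279, 10149 and 4651 counts in the same order, which was 74.5% to 77.8% of the mitochondrial counts outside rRNA. In bulk RNA, fewer mitochondria or fewer cells and less RNA in each cannot be told apart. The 5 markers of green tissue were present in every library, with a summed level of 7807 to 13560 CPM (counts per 1000000 counts, TMM-scaled). Single markers varied more: RBCS1A had 2135 and 560 CPM in otp90 and 888 and 4009 in Col-0. LHCA1 had 1693 and 665 CPM in otp90 and 2907 and 632 in Col-0. PSBO1 varied less, with 5196 and 3121 CPM in otp90 and 3721 and 3905 in Col-0. Markers of root summed to 19.2 to 90.0 CPM, mostly from PYK10, and those of flower and of seed to at most 2.78 CPM. The annotation used here has no gene of the name OTP90, so the targeted gene gives no check of the labels.

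The levels of the 38 models spanned from 0 to over 1000 reads per kb of gene model per 1000000 non-rRNA counts, the per-length level used to compare genes. In all 4 libraries 9 models were at 0 counts, 1 was at 0 in some libraries, and 28 had counts in every library. The models at 0 were nad1a, nad6, cob, atp8, ccmC, rpl5, rps4, rps7 and rps12. Cytochrome b, the product of cob, is a core subunit of complex III. All 9 had an exact copy of every 100-base window, and so had other models that were counted, such as atp9, so the part of the copies in the zeros was not tested. These zeros are not read as absence of RNA. With 0 counts, the upper limit of the exact 95% Poisson interval was a level of 1.25 to 2.27 for cob over the libraries. For rps12 this limit was 3.90 to 7.1. These limits cover only counting error in the reads kept after tied reads were removed, so they do not cap the RNA level.

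**Figure D1:**
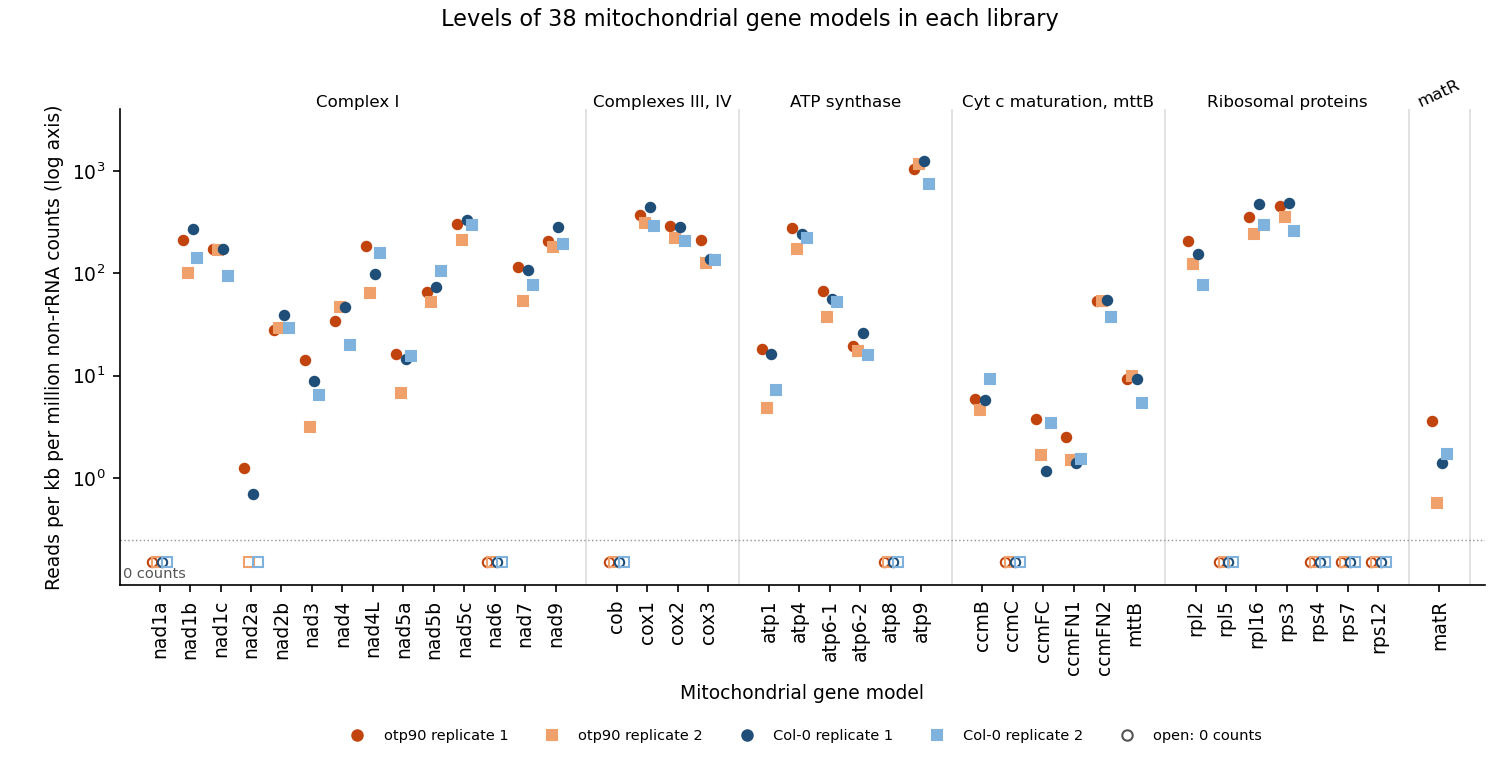
Level of each of the 38 gene models in reads per kb per 1000000 non-rRNA counts, on a log axis, with 1 point per library and open points for 0 counts. In each library atp9 is the highest, and 9 models stay at 0 in all 4 libraries.

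Among the ATP synthase genes, atp9 (ATMG01080) had the highest level of all models in every library. This gene encodes the subunit of the membrane ring that turns as protons pass. Its level was 1044 and 1170 in otp90 and 1240 and 751 in Col-0, a mean of 1051 ± 216 (SD over the 4 libraries). It lay 2.31 to 3.28 times above rps3, the next in the order, so the first place holds in 4 of 4 libraries. The files' model of atp9 is 504 bases long against a coding sequence of 225 in TAIR10.1, and all windows of that coding sequence and of 279 bases on either side have a nuclear copy. What set its reads apart from the copies was not tested.

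The other ATP synthase genes were lower. The stalk subunit gene atp4 stood at 279 and 171 in otp90 and 244 and 218 in Col-0. The catalytic alpha subunit gene atp1, all of whose windows are copied, had 18.1 and 4.87 in otp90 and 16.3 and 7.24 in Col-0. In both genotypes atp1 was higher in replicate 1. The mitochondrial genome holds a pair of atp6 genes for the subunit that forms the proton channel with the ring. The atp6-1 model was above atp6-2 in every library, with a ratio of levels of 3.49 and 2.17 in otp90 and 2.14 and 3.31 in Col-0. The annotated atp6 genes share much of their sequence, so this ratio is uncertain.

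For complex IV, the genes of the 3 large subunits were all well counted. The catalytic subunit gene cox1 (ATMG01360) had 802, 866, 1751 and 790 counts, a level of 368 and 312 in otp90 and 442 and 289 in Col-0. The copper-binding subunit gene cox2 had 289 and 221 in otp90 and 284 and 206 in Col-0. The level of cox3 was 211 and 127 in otp90 and 138 and 135 in Col-0, from a model of 1447 bases where the coding sequence has 798. The order cox1 above cox2 above cox3 was the same in each library. Every 100-base window of the cox3 coding sequence is copied, 20.3% of those of cox2 and none of cox1. The part of this in their order was not tested.

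Complex I models ran from 0 to 335. The highest was nad5c (ATMG00060), the last 2 exons of nad5, at 299 and 211 in otp90 and 335 and 297 in Col-0. Next came nad9, a subunit of the arm that takes up NADH electrons, at 207 and 181 in otp90 and 284 and 191 in Col-0. The nad4L model, for a small membrane subunit, varied within genotypes, with 183 and 64.1 in otp90 and 97.6 and 157 in Col-0. Its libraries do not sort by genotype. Lower down, nad7 stood at 53.5 to 115, nad4 at 19.9 to 47.2, nad2b at 27.6 to 39.4 and nad3 at 3.17 to 14.2 over the 4 libraries. No 100-base coding window is copied in nad5c, nad9 and nad4L, against 86.1% in nad7 and 100% in nad4, nad2b and nad3. The part of this in their order was not tested.

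Ribosomal protein genes were either high or at 0. The small subunit gene rps3 (ATMG00090) had 452 and 356 in otp90 and 481 and 261 in Col-0. The large subunit gene rpl16 had 357 and 243 in otp90 and 471 and 293 in Col-0, and rpl2 had 204 and 122 in otp90 and 154 and 76.8 in Col-0. In TAIR10.1 rps3 and rpl16 overlap by 134 bases on one strand, so the reads of that stretch could belong to either. The other 4 models of this class are among those at 0. Of 100-base windows, 4.47% are copied in rps3, 27.2% in rpl16, 76.4% in rpl2 and all in those 4. The part of this in their levels was not tested.

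Genes of cytochrome c maturation, which attach haem to the c-type cytochromes, were low. The best counted was ccmFN2 (ATMG00960) at 53.5 and 53.2 in otp90 and 54.2 and 37.0 in Col-0. The mttB model, for a Tat-type protein translocase subunit, had 9.29 and 9.95 in otp90 and 9.28 and 5.39 in Col-0. With no copied window, ccmB still had only 5 counts in each otp90 library and 9 and 10 in Col-0, a level of 4.60 to 9.34. It lay 13.9 to 31.2 times below nad4L, another model without copied windows, in all 4 libraries. The maturase gene matR, which lies in an intron of nad1, had 10, 2, 7 and 6 counts. The ccmFC model had 7 and 4 counts in otp90 and 4 and 8 in Col-0. Of 100-base coding windows, 81.1% are copied in ccmFN2, 96.2% in mttB, 89.3% in matR and 100% in ccmFC. The part of this in their levels was not tested.

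Over the 26 models of equal length in TAIR10.1 that could hold a window, the level fell as the copied share rose, with a Spearman rho of -0.82 across genes. These points share the same 4 libraries, and genes are not independent replicates. The 7 models with 10% or fewer copied windows had a median level of 228 with a range of 6.40 to 387. The 8 in between had a median of 114, and of the 11 with every window copied 8 were at 0 and the highest, nad4, was at 37.0. Models of unequal length are not in these classes. Every window of the coding sequence was copied in atp9, at 1051, and in cox3, at 152. The same held for 1 of the 2 atp6 genes, whose models stood at 53.6 and 19.7. The cox3 model is longer than its coding sequence. In the 649 bases on either side, 100% of windows upstream and 81.8% downstream were copied, so the model may hold windows with no copy. Windows of 50 and 150 bases put the same numbers of models in these classes.

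**Figure D2:**
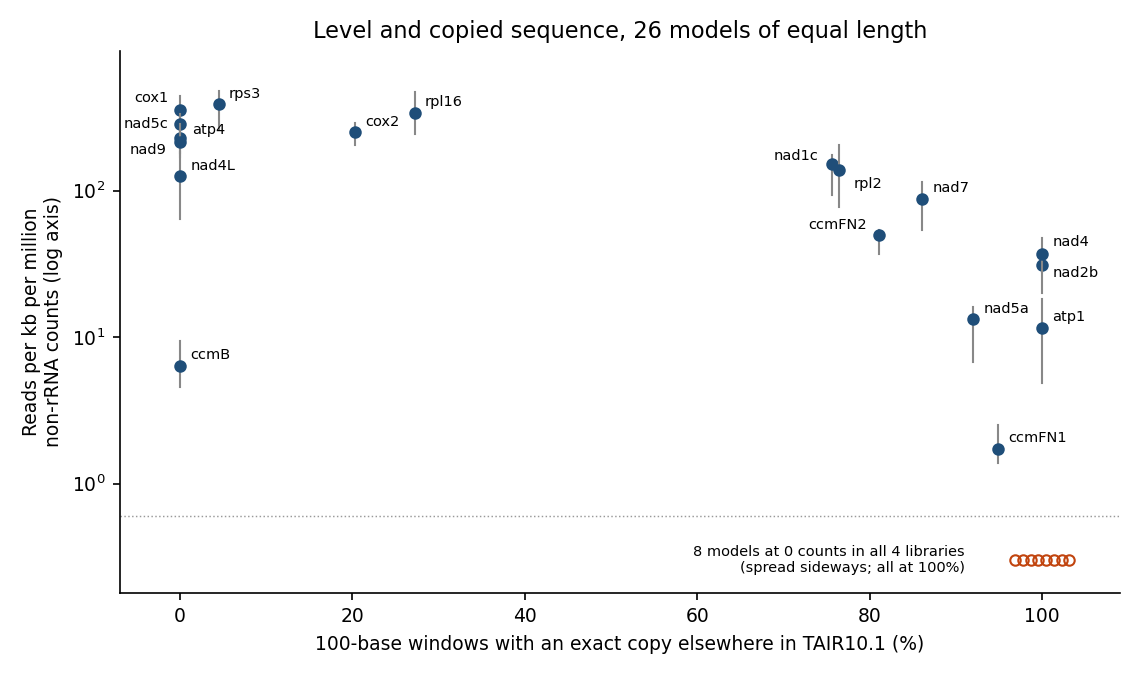
Mean level over 4 libraries (reads per kb per 1000000 non-rRNA counts, log axis) against the percent of 100-base windows with an exact copy elsewhere in TAIR10.1, for the 26 models of equal length; grey lines run from the lowest to the highest library. Models with few copies lie high except ccmB, and 8 models at 100% are at 0 counts. Not drawn are atp9 and cox3, of unequal length, whose coding sequences are fully copied.

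Among the 8 models with 10% or fewer copied windows, a threshold chosen after the values were seen, the order by mean level was rps3, cox1, nad5c, atp4, nad9, nad1b, nad4L and ccmB. Of the 7 neighbouring pairs, nad5c stood above atp4 and nad4L above ccmB in all 4 libraries. The other 5 pairs changed order in at least 1 library, so they do not differ beyond the spread. Of the 4 libraries, Col-0 replicate 2 gave the place after atp9 to nad5c, where the other 3 gave it to rps3.

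The pieces of the trans-spliced genes differed greatly in level within a library. For nad5, the last exons in nad5c were 18.6 and 31.4 times above the first exons in nad5a in otp90, and 22.9 and 18.9 times in Col-0, per length. Over all 4 libraries the ratio was 21.8, with an exact 95% interval of 18.3 to 26.2 that covers counting error only. The copied share of 100-base windows was 92.0% in nad5a and 0% in nad5c. Divided instead by the number of windows with no copy, the ratio over all libraries was 0.92 with windows of 50 bases, 2.38 with 100 and 4.99 with 150. No label states how long the reads were, so no window can be preferred, and the size of a true difference between the ends of nad5 cannot be read from the counts. The middle exon, nad5b, is only 22 bases long and had 2 or 4 counts a library, and its whole sequence in TAIR10.1 (chrMt:360107-360128, plus strand) is shown for its size.
nad5b: gatatgatgattggtttaggta

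For nad1, whose protein lies in the membrane arm of complex I, the first exon (nad1a) was at 0 and every window of it is copied. The second piece, nad1b, stood at 213 and 100.4 in otp90 and 268 and 140 in Col-0. The third piece, nad1c, stood at 174 and 169 in otp90 and 171 and 93.1 in Col-0. In nad1c the other libraries were thus close together and Col-0 replicate 2 was low, while nad1b was lower in both replicates numbered 2. The ratio of nad1c to nad1b was 0.82 and 1.68 in otp90 and 0.64 and 0.66 in Col-0. Of 100-base windows, 75.6% are copied in nad1c and 0% in nad1b. Over all libraries the ratio was 0.81 per length, and per window with no copy it was 3.47, 2.26 and 1.04 with windows of 50, 100 and 150 bases, so its direction turns. The genotypes did not overlap in this ratio, a log2 difference of 0.85, but the exact two-sided permutation test gave p = 0.333, the smallest that 2 against 2 libraries can give.

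Of nad2, also a membrane subunit, the first exons in nad2a had 1 and 0 counts in otp90 and 1 and 0 in Col-0. The last exons in nad2b had 35, 47, 91 and 46 counts. Every window within the exons of both pieces is copied in TAIR10.1, so their difference is not matched by a difference in these windows. Exon junctions were not searched, and the nad2a model is 578 bases long against 545 in TAIR10.1. Over all libraries the ratio per length was 68.7, with an exact interval of 18.8 to 570. The ccmFN gene is also split in Arabidopsis. Over all libraries ccmFN2 stood above ccmFN1 by 30.04 times with an exact interval of 17.5 to 55.8, with 81.1% and 94.9% of windows copied. By library the ratio was 21.1 and 35.7 in otp90 and 39.0 and 24.4 in Col-0. These ratios rest on few ccmFN1 counts, 4 and 3 in otp90 and 4 and 3 in Col-0. Per window with no copy the ratio over all libraries was 17.02, 8.91 and 5.88 with windows of 50, 100 and 150 bases.

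**Figure D3:**
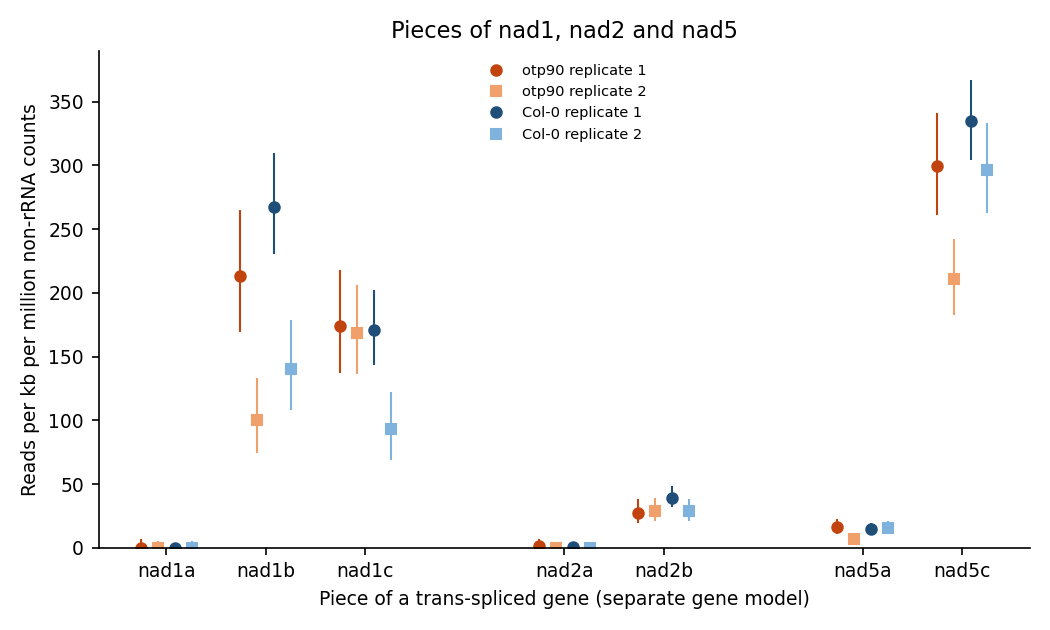
Level of each piece of nad1, nad2 and nad5 (reads per kb per 1000000 non-rRNA counts) in the 4 libraries, with exact 95% Poisson intervals for counting error; nad5b, of 22 bases, is left out. The piece nad5c lies at 211 to 335 where nad5a lies at 6.72 to 16.1.

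Of 6 such ratios compared between genotypes, nad1c to nad1b and rps3 to rpl16 did not overlap, and both had an adjusted p of 0.8 by the exact permutation test with Benjamini-Hochberg over the 6. The ratio of rps3 to rpl16 was 1.27 and 1.46 in otp90 and 1.02 and 0.89 in Col-0. Per 100-base window with no copy it was 0.88 and 1.02 in otp90 and 0.71 and 0.62 in Col-0, so the order of the pair turned in 2 of 4 libraries. The neighbours nad4L and atp4 lie 266 bases apart on one strand. Per length atp4 was above nad4L in every library, 1.53 and 2.66 times in otp90 and 2.50 and 1.39 times in Col-0. Per window with no copy this held with windows of 50 and 100 bases. With 150 bases the ratio was 1.05 and 1.82 in otp90 and 1.71 and 0.95 in Col-0, so the order turned in Col-0 replicate 2.

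Between otp90 and Col-0 none of the models passed the test. Of the 38, 22 had enough counts to be tested, 15 with positive and 7 with negative log2 fold changes (49.2% and 50.8% of all genes tested), and 0 were called at an adjusted p under 0.05 by edgeR's quasi-likelihood test or by DESeq2. Of all 11938 genes tested, 0% were called. Without adjustment, 0 of the 22 had a p under 0.05 by either tool. Such a p was given to 1.41% of all genes tested by edgeR and to 96 of 11938 by DESeq2. The median log2 fold change was 0.09 in the 22 and -0.01 over all genes tested. It was -0.13 when the libraries were scaled on the models' own summed counts (9 positive, 13 negative, and -0.17 over all genes), -0.27 without otp90 replicate 1, and -0.14 when Col-0 replicate 2 was the library left out. By class, 4 of 9 tested complex I models, 3 of 3 of complex IV, 4 of 5 of ATP synthase, 2 of 2 of the maturation class and 2 of 3 ribosomal models were positive. Their standard errors ran from 0.46 to 0.76, so a log2 fold change of 1 lay within the 95% interval of 18 of the 22 models and one of -1 within that of 13.

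The following fold changes are values, not calls, on TMM-scaled CPM, for the 2 models of each class with the smallest p. The largest was rpl2, at 0.62 (SE 0.55) and from 0.095 to 1.31 with 1 library left out, with 239.5 and 124 CPM in otp90 and 162 and 74.1 CPM in Col-0. In each genotype the replicate numbered 2 was the lower one, and the genotypes overlapped. For rpl16 the log2 fold change was -0.23 (SE 0.50), with 215 and 128 CPM in otp90 and 255 and 146 CPM in Col-0. In complex I, nad1c was at 0.47 (SE 0.50) and nad4 at 0.36 (SE 0.54). The nad4 libraries had 56.8 and 68.3 CPM in otp90 and 69.8 and 27.2 CPM in Col-0, so a single low Col-0 library set the sign. In complex IV, cox3 was at 0.45 (SE 0.49) with 340 and 178 CPM in otp90 and 200 and 179 CPM in Col-0, where otp90 replicate 1 stood apart from the other 3. For cox2 the value was 0.18 (SE 0.47).

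Among ATP synthase genes atp9 was at 0.25 (SE 0.49), with 587 and 573 CPM in otp90 and 627 and 348 CPM in Col-0, and atp4 at 0.10 (SE 0.48). In the maturation class ccmFN2 was at 0.33 (SE 0.48) and mttB at 0.47 (SE 0.71). The mttB model had few counts, 11 and 15 in otp90 and 20 and 8 in Col-0. Its levels, scaled without TMM, were nearly equal in replicate 1, at 9.294 in otp90 and 9.279 in Col-0. With 8.93 and 8.33 CPM in otp90 and 8.02 and 4.26 in Col-0, mttB was the only one of the 22 whose genotypes did not overlap in CPM. That is 1 of 22, against 25.9% of all genes tested in either direction (12.4% with otp90 above and 13.5% below). With 1 of the 4 libraries left out in turn, the sign turned for rpl16, atp4, atp9, cox2, cox3 and nad4, and the values are given under the processing alternatives. Without 1 library the values ran from 0.07 to 1.08 in nad1c, 0.11 to 1.02 in mttB and 0.04 to 0.73 in ccmFN2.

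**Figure D4:**
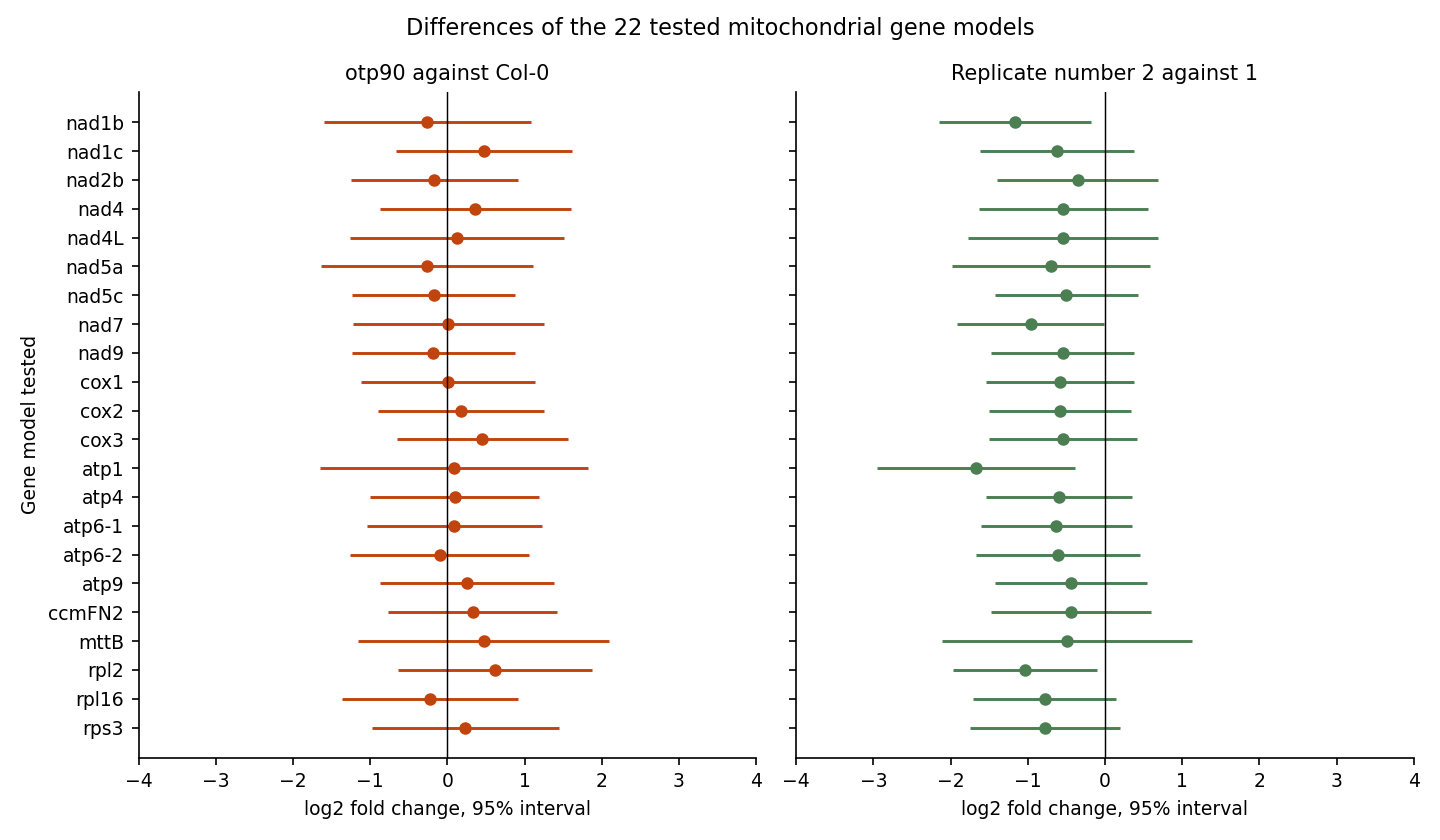
Log2 fold change with its 95% interval from edgeR for the 22 tested models, otp90 against Col-0 on the left and replicate number 2 against 1 on the right. Every interval crosses 0 on the left, and every point lies below 0 on the right.

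As a whole, the 38 models held 0.386% and 0.302% of non-rRNA counts in otp90 and 0.405% and 0.270% in Col-0. The 95% Wilson intervals, for counting error, were 0.376 to 0.3965 and 0.2935 to 0.310 in otp90 and 0.398 to 0.413 and 0.262 to 0.278 in Col-0. The genotype means of 0.344% ± 0.060 and 0.338% ± 0.096 (SD, n = 2 each) differed by less than the spread (exact permutation p = 1). The make-up of the reads per kb was also close. Complex I models took 28.5% and 24.3% in otp90 and 28.52% and 32.4% in Col-0, so replicate 1 was nearly equal between the genotypes. ATP synthase models took 30.1% and 37.1% in otp90 and 31.2% and 29.9% in Col-0. The complex I share differed by -4.02 percentage points (otp90 minus Col-0) with p = 0.333 by the exact test, the smallest possible, and an adjusted p of 1 over the 7 shares compared. Without an otp90 library it was -6.11 or -1.94, and without a Col-0 library -5.94 or -2.11. The complex I share includes nad5b, 22 bases long, whose 2 or 4 counts a library gave levels of 51.9 to 105.5. The share without nad5b was not computed. Complexes III and IV took 17.02% to 18.3%, ribosomal proteins 18.04% to 21.8%, the maturation class 1.42% to 1.88% and matR 0.0150% to 0.0761% of the reads per kb.

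The libraries numbered 2 were compared with those numbered 1 because earlier results of these data had shown that libraries differ by number. The values below therefore describe a split already seen and are not an independent finding. In TMM-scaled CPM the tested models were mostly lower in number 2. On the levels, scaled without TMM, 28 models had counts in every library. Of these, 24 were lower and 4 higher in number 2 in otp90, and 21 lower and 7 higher in Col-0. In otp90 the direction of atp9 turned with the scaling, with levels of 1044 and 1170 but 587 and 573 CPM. With genotype as a term, all 22 tested models had negative log2 fold changes for number 2 against 1, from -1.67 to -0.35 with a median of -0.59, while the median over all genes tested was 0.03 and 48.4% of all genes were negative and 51.6% positive. In 19 of the 22 both libraries numbered 2 lay below both numbered 1, against 20.5% of all genes tested, and in 0 above them, against 21% of all genes. With no filter on low counts, 26 of 29 models had negative and 3 had positive log2 fold changes. None of the 22 was called by edgeR's quasi-likelihood test (smallest adjusted p = 0.342) or by DESeq2. Of all genes, 0.804% were called by edgeR and 99 of 11938 by DESeq2. Before adjustment, edgeR gave a p under 0.05 for 4 of the 22 and for 8.76% of all genes. DESeq2 gave one for 2 of the 22 and for 635 of all 11938 genes. The 4 were atp1 at -1.67 (SE 0.60), nad1b at -1.17 (SE 0.46), rpl2 at -1.04 (SE 0.44) and nad7 at -0.96 (SE 0.45). The models share 1 genome and 1 library total, so 22 of 22 is not 22 separate observations. Scaled instead on the models' own summed counts, 15 were positive and 7 negative with a median of 0.04, while the median over all genes tested was 0.66, since this scaling centres the models. What the numbers stand for is not given in the labels.

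The nuclear genes whose products splice, edit or transcribe these RNAs were mostly too low to test. Of 28 listed factors 10 were tested, 4 with positive and 6 with negative log2 fold changes, a median of -0.07, and 0 called against 0% of all genes. None had an unadjusted p under 0.05 by edgeR. The 4 with the smallest p are given as values. The RNA helicase gene PMH2, whose product acts in mitochondrial intron splicing, had 18 and 10 counts in otp90 and 43 and 35 in Col-0 and a value of -0.86 (SE 0.65). The mitochondrial RNA polymerase gene RPOTm was at -0.66 (SE 0.62) and RPOTmp, which serves both organelles, at -0.68 (SE 0.67). For TANG2, a pentatricopeptide repeat protein needed to splice nad5, 4 and 20 counts in otp90 and 8 and 11 in Col-0 gave 0.71 (SE 0.87). In CPM the TANG2 libraries overlapped, with 3.25 and 11.1 in otp90 and 3.21 and 5.86 in Col-0.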

How the data were processed

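The authors deposited raw read counts per gene model, made with sam2pkm, per the file headers, which also say that reads with tied best and second alignment scores were removed. The deposited model length, the other column, is not a measurement. Per the submitters' processing notes, the reads were placed on TAIR10. Per the labels' protocols, rRNA was depleted and stranded libraries, sized to 230 bp, were read from one end on an Ion Proton. Overlapping and antisense genes may share reads, since neither the aligner nor any use of strand in counting is given in the sources used here.

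Symbols were assigned by locus from a hand-written list. The members and lists were chosen with earlier results of these data known. The tests used edgeR 4.0.16 (R 4.3.3): 15 rRNA models were left out, filterByExpr kept 11938 genes, libraries were TMM-scaled, and genotypes were compared without a replicate block by the quasi-likelihood test, adjusted by Benjamini-Hochberg. Replicate numbers were compared with genotype as a term, a comparison also chosen with earlier results of these data known. DESeq2 1.42.0 was an alternative. The standard error came from the fold change and the F statistic. The procedure was tested on simulated data with planted changes far larger than those of the models, so that test says nothing of power at their size. Levels are counts per kb per 1000000 non-rRNA counts. Shares and ratios were compared by exact two-sided permutation tests, which cannot go below p = 0.333 here. Windows of each coding exon were searched on both strands of TAIR10.1 for exact copies, junctions left out. Of 28 listed nuclear factors, 21 carry their name in that annotation. Named models are the highest, the lowest and the 2 with the smallest p of each class, all split genes and models at 0.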

Additional observations from a re-analysis of the deposited data

How the results depend on the processing

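No model was called between genotypes under any alternative run (DESeq2, DESeq2 size factors, TMM on nuclear genes, no filter, rRNA kept in library sizes, the replicate block, and each library left out). With 1 library left out, the lone library is assumed to vary like the other genotype's pair, so the absence of calls there says nothing about stability. Over all genes, leaving out 1 library gave 0 to 33 calls: 24 and 0 when an otp90 library (number 1, then 2) was dropped, and 30 and 33 when a Col-0 library was. The shared replicate numbers are not said to mark a batch. The replicate block gave 0 calls over all genes and a median of 0.03 in the models. Deviations of same-numbered libraries correlated with r = 0.22 over genes, and -0.38 over the 22 models. The models' median was -0.27 to 0.46 with 1 library left out and -0.13 scaled on their own summed counts. Log2 fold changes that changed sign with 1 library left out ranged from -0.14 to 1.22 in nad4, -0.066 to 0.87 in cox3, -0.12 to 0.52 in cox2, -0.10 to 0.76 in atp9, -0.40 to 0.50 in atp4 and -0.63 to 0.25 in rpl16.

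For number 2 against 1 the calls over all genes were 214 with no filter, and 511, 178, 209 and 203 with otp90 1, otp90 2, Col-0 1 or Col-0 2 left out and genotype not a term, a setting added after seeing the data because genotype as a term leaves no residual degree of freedom. The models' median was then -0.73 to -0.49, and 0.043 scaled on their own counts, also added. Without division by length the share of complexes III and IV differed by -0.36 points, and by 1.70 without atp9; without atp9 the maturation share differed by 0.41, the ATP synthase share by -0.21 in place of 3.08 and the ribosomal share by 1.66 in place of 0.33. The cause was not tested. Depth limits the low models: 21 of 38 had at least 10 counts in every library.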
